A study of Mus musculus with 4 samples.

Results

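The nuclear-encoded subunits and assembly factors of respiratory complex I were followed in mouse liver through every probe set whose only gene symbol in the platform annotation begins with Nduf. This rule gave 74 of 22626 probe sets, and 39 of 12393 named genes, of which 12 were Ndufa, 10 Ndufb, 6 Ndufs, 3 Ndufv and 2 Ndufc genes, 5 were Ndufaf assembly factors, and the remaining gene was Ndufab1. Another 8 Nduf probe sets carry several symbols and were left out of the rule.

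The livers came from adult male C57BL6 mice that had received an adenovirus and were killed on day 6. The groups compared were Ad-lipin, whose virus drives the beta form of mouse lipin 1, and GFP, the control, whose virus drives green fluorescent protein. Each group had 2 arrays, named here by replicate number, and all 4 came from virus-treated livers, so the design holds no uninfected liver. Lipin 1 makes diacylglycerol from phosphatidate and, in the nucleus, works together with PGC-1 alpha and PPAR alpha in gene activation, and the comparison asks which liver transcripts differ when it is overexpressed. The labels name polyA RNA for Ad-lipin replicate 2 and total RNA for the other arrays, and nothing in them says that arrays came from separate animals, so a p-value here covers only array-to-array spread, which may be technical.

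Complex I, NADH:ubiquinone oxidoreductase, is the entry point of the respiratory chain. It takes electrons from NADH made by beta-oxidation and the TCA cycle, passes them along iron-sulfur clusters to ubiquinone, and pumps protons out of the matrix. Ndufv1, Ndufv2 and several Ndufs genes encode the catalytic core of its matrix arm, Ndufv3 and the Ndufa, Ndufb and Ndufc genes encode accessory subunits that wrap both arms, and Ndufaf proteins help assembly without staying in the enzyme. Subunit roles below were worked out largely on bovine and human complex I. The mitochondrially encoded subunits were not analysed here.

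Signals are MAS5 values in arbitrary units, with a 2% trimmed mean of 1501 on every array and medians of 617 to 748. The dimmest signals were raised to a floor of 119.5 before log2 was taken, and a probe set was tested where its mean over all 4 arrays reached the 40th percentile. This left 66 Nduf probe sets for 35 genes, among 13576 probe sets and 8493 genes tested in all. A gene with several tested probe sets is represented by the one with the highest mean. Hepatocyte markers were bright, with Alb at 809335 and 912532 in Ad-lipin livers and 571407 and 1069105 in GFP livers, and 10 of 10 were tested, as were 9 of 10 Kupffer cell, 5 of 6 endothelial, 3 of 5 stellate, 5 of 9 lymphocyte, 1 of 5 cholangiocyte and 2 of 5 muscle markers. The 3' to 5' signal ratio of beta-actin, a sign of RNA degradation, was 2.85 and 2.86 in the Ad-lipin arrays, against 1.77 and 4.22 in the GFP arrays, and GFP replicate 2 also had the lowest mean correlation with the other arrays (0.731, against 0.781 to 0.793). Lpin1 exceeded both GFP arrays in Ad-lipin replicate 2 only: its 2 probe sets read 2261 and 6719 in Ad-lipin livers against 2730 and 1430 in GFP livers, and 3854 and 11087 in Ad-lipin livers against 7082 and 4632 in GFP livers, so Ad-lipin replicate 1 is throughout the array labelled so, and every direction given for Ad-lipin rests on that label. Precision is limited throughout by the small number of arrays.

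No Nduf gene passed the test between Ad-lipin and GFP livers, and those with the smallest p lay on the higher side. The accessory subunits Ndufa3 and Ndufa6 had about 2-fold more signal in both Ad-lipin livers, while Ndufa10 and Ndufab1 had about 0.7 times the GFP signal on their brightest probe sets. Ndufs7 did so too on its brighter probe set, and its other one separated upward. The 35 genes had a median log2 difference of 0.14 (1.10-fold) between Ad-lipin and GFP, beside 0.0015 over all 8493 genes, with 21 above 0 (60%, beside 50.1% of all genes) and 14 below. Over the 66 probe sets, 43 lay above 0 (65.2%, beside 50.3% of all) and the median was 0.22. With limma, 0 of the 66 probe sets passed an adjusted p under 0.05 in either direction, and percent called was 0 over all 13576 probe sets too. At an unadjusted p under 0.05, limma took 3 Nduf probe sets as higher and 1 as lower, where 2.47% of all probe sets were higher and 1.92% lower. Over genes this left Ndufa3 and Ndufa6 higher and 0 lower, where 2.66% of all genes were higher and 1.97% lower.

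Both Ad-lipin arrays lay above both GFP arrays in 12 of the 35 genes (34.3%), beside 17.3% of all genes tested, and below both in 4 (11.4%), beside 16%. In the other 19 genes the groups overlapped. Counted over probe sets, 26 of 66 lay above (39.4%, beside 17.1% of all) and 6 below (9.09%, beside 15.9%). Probe sets of a gene and subunits of a complex are not replicates of the condition, so these shares are a description of 4 arrays. With 2 arrays in each group, the smallest two-sided p an exact permutation test can give for any gene is 0.333.

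**Figure D1:**
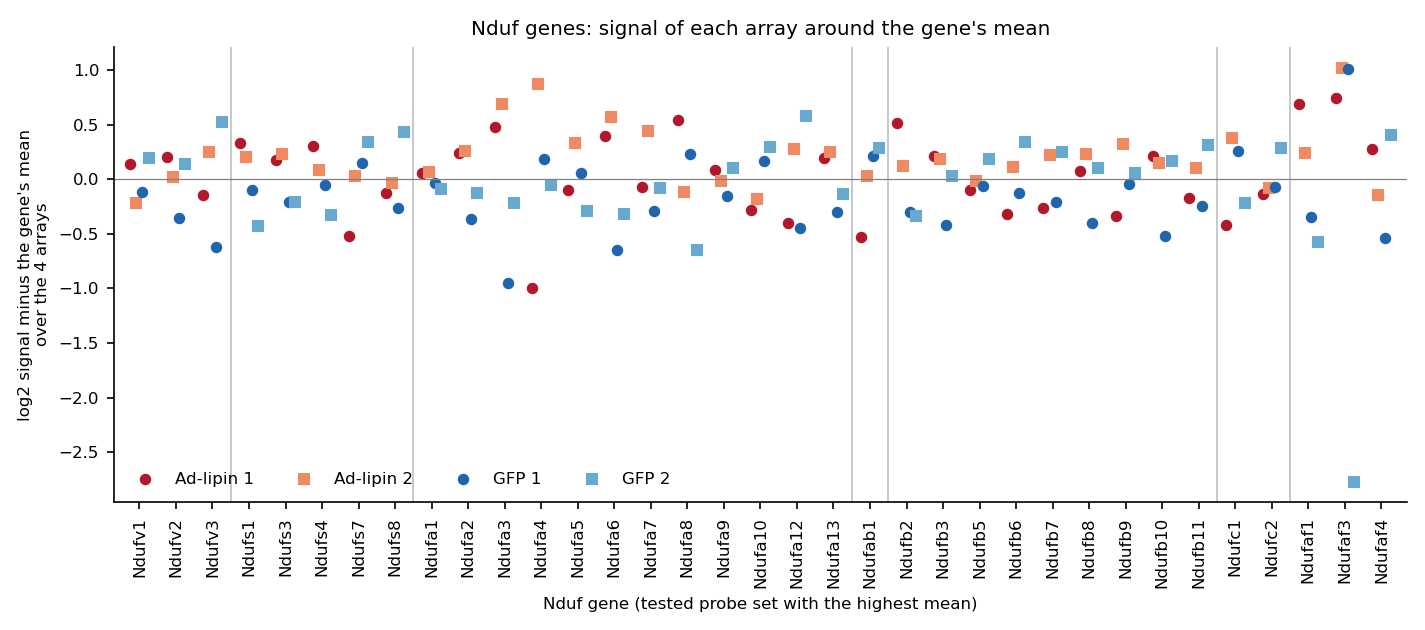
Signals of the 35 tested Nduf genes on each array, as log2 signal minus the gene's mean over the 4 arrays (vertical axis), for Ad-lipin replicates 1 and 2 (red and orange) and GFP replicates 1 and 2 (dark and light blue). Vertical lines separate the classes Ndufv, Ndufs, Ndufa, Ndufab1, Ndufb, Ndufc and Ndufaf. GFP replicate 1 is the lowest array in 15 genes and the highest in 0, and the point far below the rest is GFP replicate 2 for Ndufaf3.

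Ndufa3 and Ndufa6 were the genes with the smallest p. Ndufa3, a small single-span accessory subunit at the foot of the membrane arm, read 10068 and 11717 in Ad-lipin livers, against 3759 and 6239 in GFP livers, on the brighter of its probe sets (Entrez gene 66091). The other read 9490 and 9982 in Ad-lipin livers, against 3221 and 4778 in GFP livers. On both, the Ad-lipin arrays lie close together and above either GFP array. The log2 differences were 1.17 ± 0.35 and 1.31 ± 0.35 (limma SE, n = 2 per group; limma adjusted p = 0.962 for each), or 2.24-fold and 2.48-fold. Ndufa6, a subunit of the LYR protein family that binds an acyl carrier protein in the matrix arm, read 12910 and 14628 in Ad-lipin livers, against 6287 and 7889 in GFP livers (Entrez gene 67130). The groups did not overlap, and the log2 difference was 0.96 ± 0.32 (1.95-fold, limma adjusted p = 0.962). With an array left out in turn, the brighter Ndufa3 probe set stayed between 0.80 and 1.53 and Ndufa6 between 0.80 and 1.13.

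On the other side, Ndufa10, an accessory subunit of the membrane arm related to nucleoside kinases, read 27050 and 28846 in Ad-lipin livers, against 36838 and 40366 in GFP livers. Both Ad-lipin arrays lay below both GFP arrays, at a log2 difference of -0.47 ± 0.32 (limma adjusted p = 0.962) that stayed between -0.53 and -0.40 with an array left out. A second Ndufa10 probe set was too dim to test.

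The promoters of these genes are shown because they are the members whose arrays separated with the smallest p upward and, for Ndufa10, the only member with a single tested probe set that separated downward. Each runs from 250 bases before to 50 bases after the annotated start site (RefSeq, GRCm38.p6), on the gene's own strand: Ndufa3 at chr7:3617123-3617422 (+), Ndufa6 at chr15:82354242-82354541 (-) and Ndufa10 at chr1:92473709-92474008 (-). Capitals mark matches, on either strand, to GCGCA, any base and GCGC in a row, the letters of the nuclear respiratory factor NRF-1, CCGGAAG of the ETS factor GABP, AAGATGG of YY1 and TCAAGGTCA of the estrogen-related receptors, factors known to act on respiratory chain genes.
Ndufa3: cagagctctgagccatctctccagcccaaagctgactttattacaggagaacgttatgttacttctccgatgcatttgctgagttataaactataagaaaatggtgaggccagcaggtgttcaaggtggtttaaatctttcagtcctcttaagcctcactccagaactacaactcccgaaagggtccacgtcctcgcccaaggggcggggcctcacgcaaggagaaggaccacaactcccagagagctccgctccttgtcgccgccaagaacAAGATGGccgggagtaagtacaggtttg
Ndufa6: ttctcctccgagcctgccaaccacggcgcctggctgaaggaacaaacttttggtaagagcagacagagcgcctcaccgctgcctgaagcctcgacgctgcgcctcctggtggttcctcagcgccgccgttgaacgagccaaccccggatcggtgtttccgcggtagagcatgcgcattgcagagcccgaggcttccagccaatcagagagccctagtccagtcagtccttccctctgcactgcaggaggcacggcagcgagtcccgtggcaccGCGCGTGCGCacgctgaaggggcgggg
Ndufa10: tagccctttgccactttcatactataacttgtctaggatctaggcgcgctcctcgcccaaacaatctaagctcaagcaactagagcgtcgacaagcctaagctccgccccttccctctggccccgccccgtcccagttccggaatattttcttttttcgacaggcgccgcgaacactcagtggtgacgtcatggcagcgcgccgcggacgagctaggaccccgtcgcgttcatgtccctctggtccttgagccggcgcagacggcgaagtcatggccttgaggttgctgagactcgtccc
Ndufa3 holds AAGATGG, starting 23 bases after the start site, and Ndufa6 holds the NRF-1 letters, starting 24 bases after it. Ndufa10 holds none of the 4 motifs in this window, which says only that these letters are not there.

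Promoters were found for 36 of the 39 genes, 38 windows in all, and 18 of them held at least 1 match. The NRF-1 letters were in 7 of 38 windows (18.4%), beside 4.6% of all 32851 windows of this length in the table. AAGATGG was in 6 (15.8%, beside 6.34% of all), CCGGAAG in 5 (13.2%, beside 8.86%) and TCAAGGTCA in 0 (0.423% of all). AAGATGG itself contains an ATG, and its 6 matches, in Ndufa3, Ndufa9, Ndufb8, Ndufc1, Ndufs4 and Ndufs7, began at bases 23 to 39, counted in the same way. The log2 differences of these genes between Ad-lipin and GFP livers ran from -0.49 for Ndufs7 to 1.17 for Ndufa3, and those with the NRF-1 letters and a tested probe set, Ndufa5, Ndufa6, Ndufa8 and Ndufaf4, ran from 0.14 to 0.96. Those with CCGGAAG, Ndufaf1, Ndufb6, Ndufb7, Ndufs3 and Ndufs8, ran from -0.21 to 0.93, with 3 of 5 below 0. Windows overlap for a gene with 2 annotated starts. The 2 Ndufa5 windows hold the same NRF-1 site, which is therefore counted more than once among the 7. A match is no evidence of binding.

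The core of the matrix arm, where NADH is oxidised, was read by Ndufv1, Ndufv2 and Ndufs1. Ndufs1, the large iron-sulfur subunit, read 4397 and 4021 in Ad-lipin livers, against 3273 and 2602 in GFP livers, with no overlap and a log2 difference of 0.53 ± 0.39. Ndufv1, which binds the flavin and NADH, read 9110 and 7105 in Ad-lipin livers, against 7610 and 9483 in GFP livers, and these overlapped, at -0.079 ± 0.33. A second Ndufv1 probe set of nearly the same brightness read 9930 and 8749 in Ad-lipin livers, against 6699 and 7297 in GFP livers, at 0.41 ± 0.32, and the remaining one gave 0.099. The brightest probe set of Ndufv2, its iron-sulfur partner, read 9208 and 8155 in Ad-lipin livers, against 6254 and 8815 in GFP livers, at 0.22 ± 0.33, with its other 2 probe sets at 0.51 and -0.034. The limma adjusted p of these probe sets lay at or above 0.962. Core genes of the NADH site therefore had probe sets with and without separated groups on the same 4 arrays.

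The core subunits that carry electrons on to ubiquinone were Ndufs3, Ndufs7 and Ndufs8. Ndufs3 was the steadiest, with 9563 and 9940 in Ad-lipin livers, against 7330 and 7311 in GFP livers, a log2 difference of 0.41 ± 0.32 that stayed between 0.39 and 0.44 with an array left out. Ndufs7, which holds the last iron-sulfur cluster before ubiquinone, went both ways. Its brighter probe set read 11045 and 16071 in Ad-lipin livers, against 17488 and 20047 in GFP livers (-0.49 ± 0.33), and its dimmer one read 5575 and 6197 in Ad-lipin livers, against 4398 and 4466 in GFP livers (0.41 ± 0.35). Neither overlapped between groups, and they point in opposite directions.

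Ndufs8, another iron-sulfur subunit, had 6 tested probe sets, the most of any member. The brightest read 40459 and 43011 in Ad-lipin livers, against 36700 and 59813 in GFP livers, at -0.17 ± 0.36. On 5 of the 6, both Ad-lipin arrays lay between the GFP arrays, with log2 differences from -0.27 to 0.32. The dimmest read 135 in Ad-lipin replicate 1 and 2929 in replicate 2, against 2404 and 3736 in GFP livers, a log2 difference of -2.26 ± 1.00 (limma unadjusted p = 0.0392) set by that array: it was -0.033 without Ad-lipin replicate 1 and -4.48 without Ad-lipin replicate 2. This is the Nduf probe set counted as lower above.

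Around the NADH site, most genes of the module had a log2 difference above 0 on the brightest probe set. Of its core subunits, only Ndufs1 separated upward on its brightest probe set, Ndufv2 overlapped and Ndufv1 lay below 0. Counting genes placed in the NADH-oxidising module in human cells (Ndufv1, Ndufv2, Ndufv3, Ndufs1, Ndufs4, Ndufa2, Ndufa6, Ndufa7 and Ndufa12), 7 of 9 lay above 0 (beside 50.1% of all genes). The groups separated upward in 5 (beside 17.3% of all genes) and downward in 0 (beside 16%), with a median log2 difference of 0.38. The directions of Ndufv1, Ndufv2, Ndufv3 and Ndufa12 turned when certain arrays were left out. Ndufa2, a thioredoxin-fold subunit, read 6171 and 6242 in Ad-lipin livers, against 4052 and 4789 in GFP livers (0.49 ± 0.35). Ndufs4, whose loss in mice causes a Leigh-like encephalopathy, read 3523 and 3029 in Ad-lipin livers, against 2756 and 2278 in GFP livers (0.38 ± 0.41), while its 2 dimmer probe sets, at -0.26 and -0.33, overlapped between groups. All 5 Ndufa7 probe sets lay above 0, from 0.30 to 0.65, and 3 of them separated upward (beside 17.1% of all probe sets). Its brightest read 14553 and 20808 in Ad-lipin livers, against 12470 and 14439 in GFP livers. Ndufa12, which sits where the NADH module joins the arm, differed from these, with all 3 probe sets below 0, from -0.50 to -0.13. Of the Ndufa12 probe sets, 1 separated downward (beside 15.9% of all probe sets). Its brightest read 20218 and 32268 in Ad-lipin livers, against 19635 and 39801 in GFP livers, and its log2 difference turned with the GFP arrays, at -0.64 when replicate 1 was left out and 0.38 when replicate 2 was. Ndufv3, a small subunit of the flavoprotein part, had its Ad-lipin signals of 18732 and 24643 inside the GFP pair of 13491 and 29724 (0.10 ± 0.38).

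At the ubiquinone end, the accessory subunits Ndufa5 and Ndufa9 overlapped between groups. Ndufa5 read 4981 and 6690 in Ad-lipin livers, against 5545 and 4338 in GFP livers (0.23 ± 0.36), although its dimmer probe set, at 0.52 ± 0.46, separated. Ndufa9, which binds a nicotinamide nucleotide, read 6623 and 6175 in Ad-lipin livers, against 5610 and 6705 in GFP livers (0.060 ± 0.34). Over the 5 genes of this module the median log2 difference was 0.060.

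In the proximal membrane arm, besides Ndufa3 and Ndufa10, Ndufa13 (GRIM-19, also studied for its role in cell death) read 36934 and 38360 in Ad-lipin livers, against 26188 and 29440 in GFP livers, separated at 0.44 ± 0.32. Ndufa1, the small X-linked subunit needed for assembly, differed by little and yet separated, with 37740 and 37912 in Ad-lipin livers, against 35465 and 34051 in GFP livers (0.12 ± 0.33). Ndufa8, a subunit held by disulfides on the intermembrane side, read 7193 and 4583 in Ad-lipin livers, against 5804 and 3154 in GFP livers (0.42 ± 0.40), and was -0.016 without GFP replicate 2. Both Ndufc genes had probe sets that disagreed. The brighter Ndufc1 probe set overlapped (-0.038 ± 0.38), and the dimmer read 5933 and 7454 in Ad-lipin livers, against 3906 and 4251 in GFP livers (0.71 ± 0.35). Ndufc2 gave -0.22 ± 0.32, separated downward, where brighter, and 0.21 ± 0.40 with overlap where dimmer.

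The distal membrane arm, built from Ndufb subunits around the proton-pumping antiporter-like cores, showed no common direction on the brightest probe sets. Of 9 tested Ndufb genes, 4 lay above 0 and 5 below, with a median of -0.012, and groups separated upward in 2 (beside 17.3% of all genes) and downward in 0 (beside 16%). Over all 16 tested Ndufb probe sets the picture differed, with 10 above 0, 7 separated upward (beside 17.1% of all probe sets) and a median of 0.30. Ndufb2 read 9594 and 7317 in Ad-lipin livers, against 5439 and 5324 in GFP livers (0.64 ± 0.34), and its dimmer probe set also separated (0.29 ± 0.38). Ndufb3, mutated in some human complex I deficiency, read 5167 and 5093 in Ad-lipin livers, against 3331 and 4551 in GFP livers (0.40 ± 0.37). Ndufb10 and Ndufb8 gave 0.35 ± 0.36 and 0.30 ± 0.33 with overlapping groups. Ndufb5, Ndufb6, Ndufb7, Ndufb9 and Ndufb11 lay between -0.21 and -0.012 on the brightest probe set, each within its SE. For Ndufb5, Ndufb7, Ndufb9 and Ndufb11 a dimmer probe set separated upward instead, at 0.72 ± 0.34, 0.60 ± 0.44, 0.67 ± 0.34 and 0.55 ± 0.32. The dimmer Ndufb9 probe set read 40335 and 55297 in Ad-lipin livers, against 31067 and 28350 in GFP livers, while the brighter read 32364 and 50958 in Ad-lipin livers, against 39663 and 42284 in GFP livers.

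Ndufab1, the mitochondrial acyl carrier protein, sits in both arms of complex I and also serves mitochondrial fatty acid and lipoic acid synthesis. Its brighter probe set read 9066 and 13362 in Ad-lipin livers, against 15173 and 16001 in GFP livers (-0.50 ± 0.33), and the second read 5341 and 6943 in Ad-lipin livers, against 7063 and 7319 in GFP livers (-0.24 ± 0.34). Both separated downward, the opposite side from Ndufa6, its binding partner in the matrix arm. Another probe set was too dim to test. Ndufa4, which carries a complex I name but is now assigned to complex IV, had the widest ratio between its Ad-lipin arrays of the 35 genes, with 5222 in replicate 1 and 19064 in replicate 2, against 11825 and 10047 in GFP livers (-0.13 ± 0.47). Its log2 difference was 0.81 without Ad-lipin replicate 1 and -1.06 without Ad-lipin replicate 2.

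**Figure D2:**
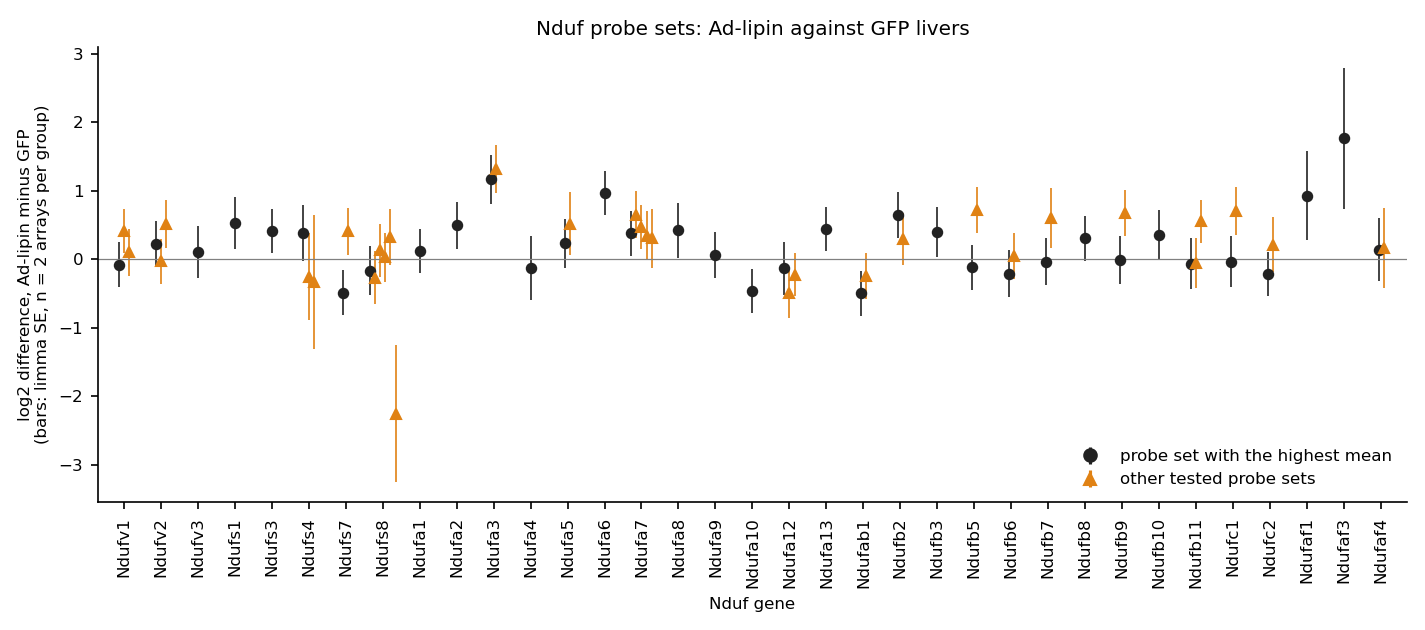
Log2 difference between Ad-lipin and GFP livers for the 66 tested Nduf probe sets (vertical axis, Ad-lipin minus GFP, bars limma SE, n = 2 arrays per group), by gene. Black circles mark the probe set with the highest mean of each gene and orange triangles the others. Ndufa3 and Ndufa6 stand highest among bright genes, and the lowest triangle is the Ndufs8 probe set at -2.26.

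The assembly factors were dim, with SEs from 0.46 to 1.03 beside a median SE of 0.35 over the tested Nduf genes. Ndufaf1, which works on the membrane arm intermediate, read 1697 and 1248 in Ad-lipin livers, against 828 and 707 in GFP livers, separated at 0.93 ± 0.65 (limma adjusted p = 0.962). Ndufaf3, which joins the early ubiquinone-module intermediate together with Ndufaf4, read 1366 and 1654 in Ad-lipin livers, against 1638 and 109 in GFP livers. Its log2 difference of 1.76 ± 1.03 rests on GFP replicate 2, whose signal lay under the floor, and was -0.12 without that array. Ndufaf4 gave 0.14 ± 0.46 and 0.16 ± 0.59 on its 2 probe sets, the brighter one at 3107 and 2321 in Ad-lipin livers, against 1764 and 3386 in GFP livers. The untested genes were Ndufaf5, Ndufaf7, Ndufb1 and Ndufs5. Ndufaf7, a protein arginine methyltransferase, was the nearest below the filter, with 833 and 462 in Ad-lipin livers, against 362 and 92.8 in GFP livers, a geometric mean of 359 beside the limit of 373, whereas the dimmest tested member, an Ndufs4 probe set, stood at 628. Ndufs5 read 569 and 172 in Ad-lipin livers, against 1138 and 65.1 in GFP livers, so its spread within groups exceeded that between them.

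Probe sets of the same Nduf gene often disagreed. Of 19 genes with several tested probe sets, 5 had all of them above 0, namely Ndufa3, Ndufa5, Ndufa7, Ndufaf4 and Ndufb2, 2 had all below, namely Ndufa12 and Ndufab1, and 12 had them on both sides. In 21 of 31 pairs (67.7%) the dimmer probe set had the higher log2 difference than the brightest of its gene, by a median of 0.19, beside 53.2% and 0.073 over 3812 pairs of other genes. The choice of probe set moved the summary: when probe sets were averaged per gene instead, the median log2 difference of the 35 genes was 0.30 in place of 0.14, with 26 above 0 in place of 21.

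**Figure D3:**
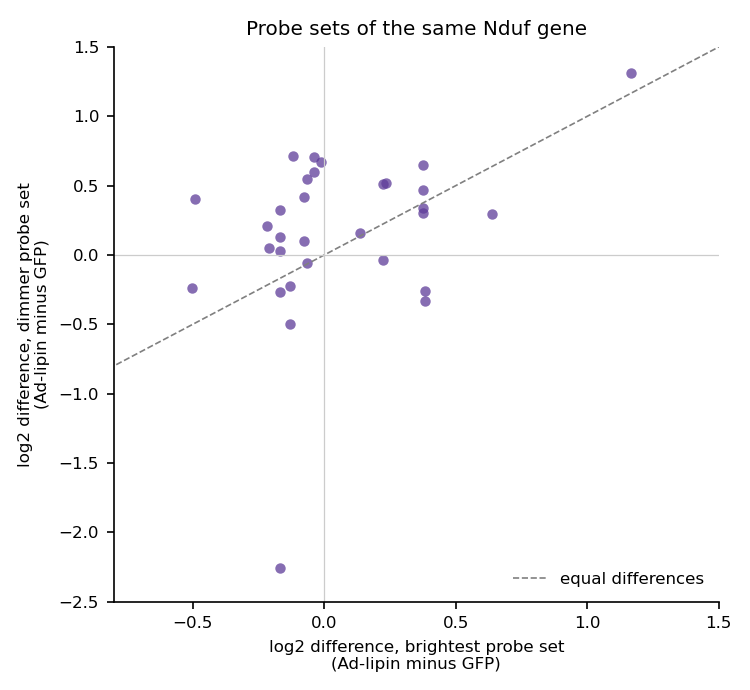
Log2 differences (Ad-lipin minus GFP) of the 31 pairs of probe sets from 19 Nduf genes, the brightest probe set of the gene on the horizontal axis and a dimmer one on the vertical axis, with axes of different range. Points above the dashed line of equal differences, 21 of 31, are pairs in which the dimmer probe set had the higher difference.

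The 4 arrays did not fall evenly into the study's groups for these genes. GFP replicate 1 was the lowest array in 15 of 35 Nduf genes (42.9%), beside 25.5% of all genes, and the highest in 0 (19.7% of all). Ad-lipin replicate 2 was the lowest in 1 (2.86%, beside 25.1% of all) and the highest in 13 (37.1%, beside 21.1%), and GFP replicate 2 the highest in 14 (40%, beside 34.2%). As medians over the genes of log2 signal minus the gene's mean, the Ad-lipin arrays stood at 0.071 and 0.19, and the GFP arrays at -0.20 and 0.052, beside 0.084 and 0.040 for Ad-lipin and -0.0028 and 0.11 for GFP over all genes. GFP replicate 2 therefore lay near the Ad-lipin arrays and GFP replicate 1 below the rest. The median log2 difference of the Nduf genes was 0.015 without GFP replicate 1, beside -0.12 over all genes, and 0.30 without Ad-lipin replicate 1, beside 0.025. It was 0.21 without GFP replicate 2, beside 0.0045 over all genes, and 0.12 without Ad-lipin replicate 2, beside 0.083, so it lay nearest to that of all genes when Ad-lipin replicate 2 was left out. The 10 hepatocyte markers had their lowest median in GFP replicate 1 too, with -0.17 and 0.37 in the Ad-lipin arrays and -0.56 and 0.42 in the GFP arrays, and their summed signal was 2787700 and 3374500 in Ad-lipin livers, against 2005600 and 4377100 in GFP livers. The Kupffer cell and macrophage list, of which 9 of 10 were tested, summed to 52883 and 34204 in Ad-lipin livers, against 52266 and 29802 in GFP livers, with Marco at most 187 on any array. The lymphocyte list summed to 4788 and 4258 in Ad-lipin livers, against 5754 and 6640 in GFP livers. Of its 9 markers 5 were tested, and all 5 lay below 0, where 50.1% of all genes lay above it. Of the 5, 3 separated downward, beside 16% of all genes. The part of these lists in the Nduf values was not tested, and in whole liver fewer cells of a type and less RNA per cell cannot be told apart.

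**Figure D4:**
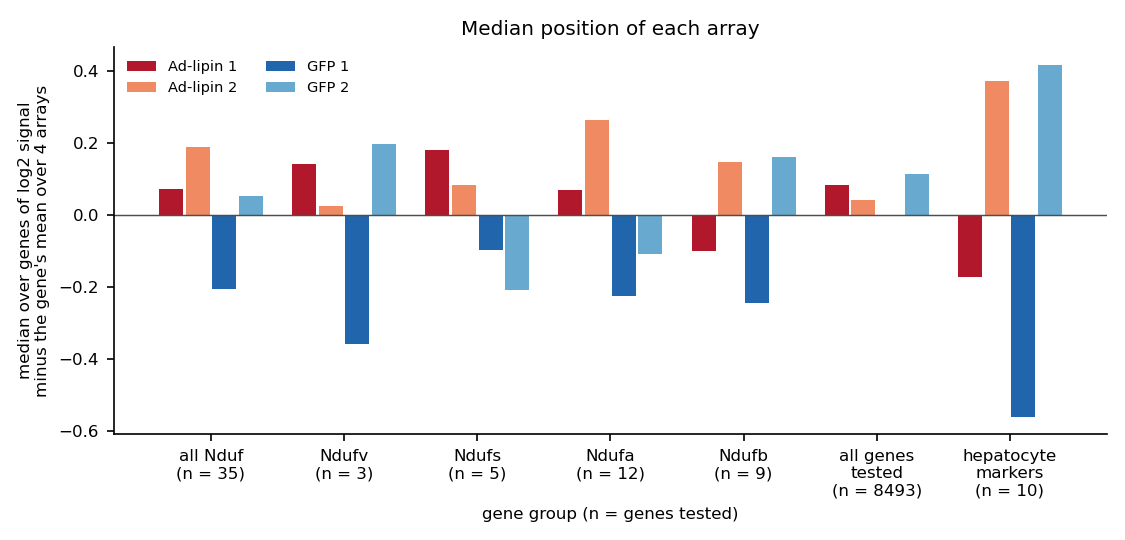
Median over genes of log2 signal minus the gene's mean over the 4 arrays (vertical axis), for each array (bars, Ad-lipin replicates 1 and 2 left of GFP replicates 1 and 2) and gene group. Over the 35 Nduf genes GFP replicate 1 stands at -0.20, and in the Ndufa genes both Ad-lipin arrays stand above both GFP arrays, while in the Ndufb genes each group has an array on either side of 0.

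Among the classes, Ndufa had the most separated genes, 6 of 12 upward (beside 17.3% of all genes) and 1 downward (beside 16%), with a median log2 difference of 0.31 (1.24-fold). Its 4 array medians were 0.069 and 0.26 in Ad-lipin livers, against -0.23 and -0.11 in GFP livers, and the class median was 0.12 without Ad-lipin replicate 2 and 0.46 without Ad-lipin replicate 1. Of 5 tested Ndufs genes, 3 separated upward and 1 downward (median 0.38), again beside 17.3% and 16% of all genes. Over the 13 tested Ndufs probe sets the median was only 0.026, and 4 separated upward and 1 downward (beside 17.1% and 15.9% of all). Of 3 Ndufv genes, 0 separated in either direction (median 0.10). Both Ndufc genes lay below 0 and the 3 tested Ndufaf genes above, with 1 of each separated. Differences between classes were not tested.

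Other genes around complex I showed no shared direction. Of 13 listed assembly factors outside the Nduf names, 8 were tested, 3 lay above 0 and 5 below, with 0 passing in limma at an adjusted or unadjusted p under 0.05, and 0 separated upward and 2 downward (beside 17.3% and 16% of all genes). These were Aifm1, which helps import of small respiratory subunits, at 4299 and 9063 in Ad-lipin livers, against 10162 and 10442 in GFP livers (-0.72 ± 0.38), and Lyrm2 at -0.61 ± 0.71. The Aifm1 difference was -0.18 without Ad-lipin replicate 1 and -1.26 without Ad-lipin replicate 2, and that of Lyrm2 was -0.12 without GFP replicate 2. Regulators of mitochondrial biogenesis were on both sides, with a median of 0.018 over 13 tested of 18, and 0 passing in limma (1, Ppara, at an unadjusted p under 0.05). Groups separated upward in 3 (beside 17.3% of all genes), namely Ppara, Esrra and Polg (0.56 ± 0.61). They separated downward in 3 (beside 16%), namely Tfb1m (-1.32 ± 0.79), Tfb2m (-0.51 ± 0.50) and Polrmt (-0.30 ± 0.45). Among the regulators Ppara had the greatest difference, with 5452 and 13121 in Ad-lipin livers, against 1688 and 1695 in GFP livers (2.32 ± 0.44, limma adjusted p = 0.660). Esrra, the estrogen-related receptor that drives respiratory genes with PGC-1, read 1693 and 871 in Ad-lipin livers, against 534 and 654 in GFP livers (1.04 ± 0.76), whereas Nrf1 gave 0.018 ± 0.73, Gabpa 0.21 ± 0.66 and Yy1 -0.19 ± 0.39. Ppargc1a was too dim to test.

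Of 18 listed genes of mitochondrial mass, 17 were tested, with a median log2 difference of 0.090, 1 separated upward and 2 downward (beside 17.3% and 16% of all genes), and 0 passing in limma at an adjusted or unadjusted p under 0.05. Cox4i1, a complex IV subunit, was the gene upward, with 41995 and 37268 in Ad-lipin livers, against 28425 and 29479 in GFP livers (0.45 ± 0.32). Cs, citrate synthase, a common measure of mitochondrial content, read 6276 and 6020 in Ad-lipin livers, against 7937 and 6584 in GFP livers (-0.23 ± 0.33), and the outer membrane receptor Tomm22 gave -0.62 ± 0.42. The difference between complex I genes and these lists was not tested.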

How the data were processed

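Liver RNA of 4 arrays, 2 Ad-lipin and 2 GFP, was analysed from the deposited intensity values, MAS5 signals on a linear scale according to the submitters' processing notes. Neither version nor scaling target is given in the sources used here. No further normalization was applied. Control probe sets (64) were left out, signals were raised to a floor at the 20th percentile (119.5), log2 was taken, and 13576 probe sets at or above the 40th percentile of the mean were tested with limma 3.58.1 in R 4.3.3 (eBayes with an intensity trend, 12.7 prior and 2 residual degrees of freedom, two-sided, Benjamini-Hochberg over all probe sets). The fit was also run on simulated data, with means and spread taken from the same fit and without array effects. That run cannot show how the fit behaves on these arrays. The floor shrinks the folds of dim genes, and signal over background is unknown for a single probe set.

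Names came from the platform annotation; 39 of 39 members matched RefSeq by Entrez identifier. Members, lists, motifs and tests were chosen with earlier results of these data known. Every Nduf gene could be named, with all values for core subunits, genes of smallest p and genes with several probe sets; genes outside Nduf came from fixed lists. Deviations of arrays with the same replicate number in the titles correlated at 0.028 over all tested probe sets, and the main fit did not pair arrays. This correlation cannot exclude a pairing that touches few genes. Alternatives are given in the closing section.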

Additional observations from a re-analysis of the deposited data

How the results depend on the processing

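Over 35 Nduf genes, 522 values were recomputed under the alternatives, and 486 kept their direction. Many of these could not turn, since other filters, variance priors and the replicate block leave the log2 difference of each gene as it was. Other floors changed only that of Ndufaf3, and averaging changes nothing for the 16 genes with 1 tested probe set. The 486 therefore overstates how far direction was put to the test. Ndufa3, Ndufa6, Ndufa10, Ndufs3 and 13 other genes kept it in every alternative run (17 in all, 14 above and 3 below 0). Of the 36 values that turned, 25 came from leaving out an array.

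Calls at a limma adjusted p under 0.05 numbered 0 over all probe sets and 0 among Nduf as reported, where 596 and 4 had an unadjusted p under 0.05. Both stayed at 0 with other floors or filters, median centring, quantile normalization, other variance priors and without _s_at and _x_at probe sets. With the replicate number as a block, 52 probe sets were called, 1 of them Nduf (Ndufa3, 1.31, limma adjusted p = 0.0356). Deviations of same-numbered arrays had correlated at only 0.028. Leaving out an array gave 0 to 13 calls over all, 13 without Ad-lipin replicate 1, 3 without Ad-lipin replicate 2, 2 without GFP replicate 2 and 0 without GFP replicate 1. For Nduf it gave 0 to 1, the 1 being the dim Ndufs8 probe set without Ad-lipin replicate 2 (-4.48, adjusted p = 0.0202). In these fits an arm held 1 array, assumed to vary like the other group. In the block fit and without either Ad-lipin array, limma took the spread of a probe set from its brightness alone.

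The median Nduf difference of 0.14 was 0.30 with probe sets averaged, 0.098 after quantile normalization, and 0.015 to 0.30 with an array left out, lowest without GFP replicate 1 and highest without Ad-lipin replicate 1. The median of all genes was -0.12 and 0.025 in these fits. Without Ad-lipin replicate 2 it was 0.083, beside 0.12 for Nduf. Directions turned with averaged probe sets for Ndufb11 (0.14), Ndufb5 (0.30), Ndufb7 (0.28), Ndufb9 (0.33), Ndufc1 (0.33), Ndufv1 (0.145) and Ndufs4 (-0.070), without _s_at and _x_at probe sets for Ndufc2 (0.21), Ndufs8 (0.13) and Ndufv1 (0.41), and with median centring for Ndufb9 (0.018). With an array left out, log2 differences ran across 0 for Ndufa4 (-1.06 to 0.81), Ndufa8 (-0.016 to 0.86), Ndufa9 (-0.068 to 0.19), Ndufa12 (-0.64 to 0.38), Ndufaf3 (-0.12 to 3.65), Ndufaf4 (-0.33 to 0.61), Ndufb5 (-0.24 to 0.0017) and Ndufb6 (-0.44 to 0.022). The same held for Ndufb7 (-0.28 to 0.20), Ndufb9 (-0.34 to 0.32), Ndufb11 (-0.34 to 0.21), Ndufc1 (-0.43 to 0.36), Ndufs8 (-0.52 to 0.18), Ndufv1 (-0.26 to 0.10), Ndufv2 (-0.025 to 0.47) and Ndufv3 (-0.47 to 0.67). The cause was not tested. With 2 arrays a group, SEs of 0.32 to 1.03 mean that differences of the size most Nduf genes show were not detectable here.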

Other observations

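Of the 8 probe sets with several symbols, some read subunits that have no probe set of their own here (Ndufb4, Ndufs6 and Ndufa11), and the others share a gene with the probe sets above. The probe set for Ndufs5 and its pseudogene read 2428 and 2901 in Ad-lipin livers, against 1388 and 1556 in GFP livers, a log2 difference of 0.85 ± 0.47 (limma adjusted p = 0.962) with separated groups. Of 2 probe sets shared by Ndufb4 and its copies Ndufb4b and Ndufb4c, the dimmer read 4027 and 2924 in Ad-lipin livers, against 1886 and 1612 in GFP livers (0.98 ± 0.44), and the brighter overlapped between groups (0.26 ± 0.33). Ndufs6, a zinc-binding subunit read together with Ndufs6b, gave 9809 and 10590 in Ad-lipin livers, against 8791 and 7259 in GFP livers (0.35 ± 0.32). Ndufa11, read with Ndufa11b, overlapped at 0.58 ± 0.39, and was 0.11 without GFP replicate 1. The probe set shared by Ndufab1 and a pseudogene read 14601 and 18264 in Ad-lipin livers, against 22289 and 28853 in GFP livers (-0.63 ± 0.32), on the same side as the 2 tested Ndufab1 probe sets. Signals from near-identical copies cannot be told apart on these probe sets.

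Grouped by identifier ending, which was chosen after the values were seen, the Nduf probe sets differed. Plain _at identifiers stand for probes designed against a single transcript, whereas _a_at, _s_at and _x_at mark probes that can match several transcripts of a gene, or of several genes. Of 28 plain ones, 23 lay above 0 and 16 separated upward (57.1%, beside 16.9% of all plain probe sets), with a median log2 difference of 0.41. Of the 38 others, 20 lay above 0 and 10 separated upward (26.3%, beside 17.4% of all such probe sets), with a median of 0.062. The array medians were 0.18 and 0.25 in Ad-lipin and -0.17 and -0.23 in GFP for the plain ones, and -0.083 and 0.11 in Ad-lipin and -0.24 and 0.15 in GFP for the others. GFP replicate 2 thus differed most between the endings. Its beta-actin 3' to 5' ratio of 4.22 was above that of the other arrays, and the part of RNA quality in this was not tested. The difference between endings has no test, since the grouping followed the values.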
